A study of Rattus norvegicus with 20 samples.

Results

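The effect of sesamin, a lignan of sesame seed, on the rat liver was measured across the whole array. The comparison sets the 5 arrays titled as sesamin livers against the 5 titled as control-diet livers, 10 of the 20 arrays of the study. Each array held liver RNA from 1 male Sprague-Dawley rat. The rats arrived at 4 weeks of age and ate a commercial non-purified diet for 7 d before 4 groups of 7 were formed with equal mean body weights. The groups then ate an experimental diet with 0.2% sesamin, with 0.2% episesamin, with 0.2% sesamolin, or with no lignan, for 15 d. Arrays were run on 5 rats per diet, since the heaviest and the lightest rat of each group were left out. The lignan-free diet carried no other agent named in the labels, and the arrays read whole liver, so all its cell types contributed.

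The nuclear receptor PPARα switches on fatty acid oxidation in the liver during fasting and in response to fatty acids and fibrate drugs. It binds DNA together with the receptor RXR at a repeated motif called DR1, and in rats its activation also makes peroxisomes more numerous. Its known targets run from acyl-CoA thioesterases and carnitine carriers to the enzymes of peroxisomal and mitochondrial oxidation, and sesame lignans are known to raise oxidation enzymes in rat liver.

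Few genes were called between the sesamin and lignan-free diets, and almost all of the called genes were higher with sesamin. Of 11576 genes tested, 46 rose (0.397%) and 4 fell (0.0346%) at an adjusted p below 0.05 in a limma fit to all 20 arrays. Without adjustment, 443 genes were higher (3.83%) and 419 lower (3.62%) at p below 0.05, so the counts in the 2 directions differed little before adjustment. In 126 genes (1.09%) all 5 sesamin arrays lay above all 5 lignan-free arrays, and in 95 (0.821%) all lay below. Under median scaling of the arrays in place of quantile normalization, 28 genes rose and 7 fell. Without normalization between arrays 17 rose and 1 fell. Without the 6 of the 20 arrays whose mean raw intensity was below 200, 44 rose and 11 fell. Levels are given below as normalized intensities, and changes as sesamin minus lignan-free on the log2 scale ± SE (n = 5 rats per diet).

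Most genes hardly moved. The middle of the log2 changes was -0.01, with 47.9% of genes above 0 and 52.1% below, and 90% of genes lay between -0.39 and 0.40. The typical SE was 0.16, which gives a 95% interval of 0.34 on either side of an estimate, so smaller changes could not be separated from 0 in most genes. The spread between the quartiles of all changes was 0.24 with sesamin, against 0.35 with episesamin and 0.36 with sesamolin, which were set against the same lignan-free arrays and gave 593 (5.12%) and 722 (6.24%) called genes. Dim arrays, of mean raw intensity below 200, were not spread evenly. They read 171 and 195 with episesamin, 159 and 188 with sesamolin, 192 with sesamin and 197 without lignan. Whether this widened the spread with episesamin and sesamolin was not tested. Of the 50 called genes (0.432%), 39 changed by at least 1.5-fold and 22 by at least 2-fold. Among the 46 that rose, 25 rose by less than 2-fold and 10 by less than 1.5-fold.

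**Figure D1:**
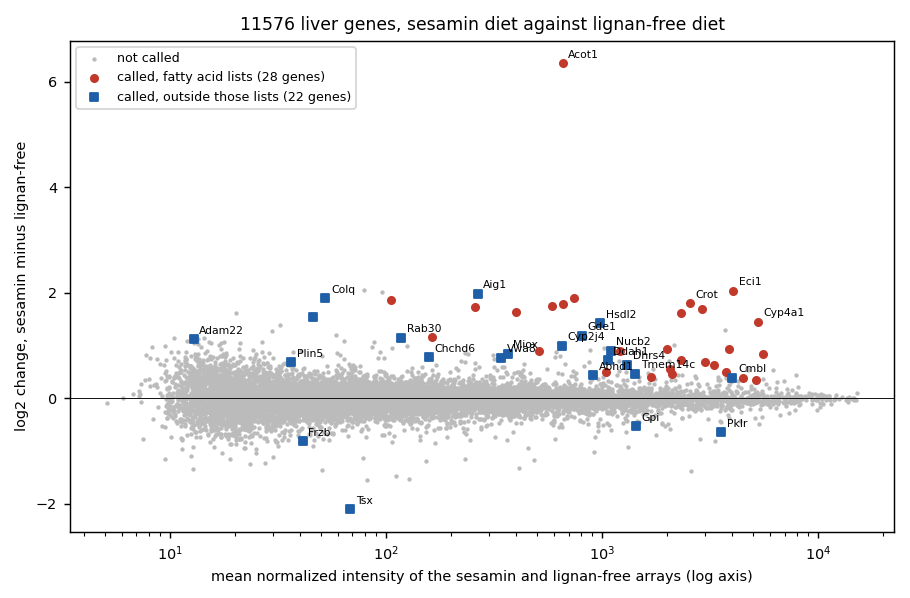
Log2 change (sesamin minus lignan-free) of 11576 genes against their mean normalized intensity over the sesamin and lignan-free arrays (log axis). Red points are the 28 called genes in the fatty acid lists, all above 0, blue squares the 22 called genes outside them, 18 above and 4 below 0, and grey points the genes not called.

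Arrays of the sesamin and lignan-free diets overlapped in brightness and in a measure of RNA integrity. Tests on 5 arrays per diet cannot show that they were alike. Mean raw intensity ran from 192 to 268 on the sesamin arrays and from 197 to 271 on the lignan-free arrays (means of 236 ± 27.6 with sesamin and 247 ± 29.2 without lignan, SD, n = 5, two-sided exact permutation p = 0.54; the smallest p this design allows is 0.00794). The 3' to 5' ratio of the actin control probe sets, a measure of RNA integrity, averaged 2.34 ± 0.123 with sesamin and 2.28 ± 0.155 without lignan (SD, n = 5, exact permutation p = 0.476). Hepatocyte markers, such as albumin and transthyretin, gave summed intensities of 104931 to 108256 on sesamin arrays and 104319 to 111500 on lignan-free arrays, and none of the 12 tested markers lay below the filter level on all 10 arrays. Precision rests on 5 arrays per diet. The arrays are labelled only as replicates of a diet, each from 1 rat, and no batch is named.

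The genes that led the response belong to fatty acid handling, and 28 of the 50 called genes stand in 6 lists on that theme, all 28 higher. Each of these lists held 13 to 31 of the 11576 genes tested. The lists were chosen with earlier results of these data known, so the count of 28 is a description. Acot1, a cytosolic thioesterase that splits acyl-CoA into free fatty acid and coenzyme A, read 2804, 1289.8, 1279, 848 and 330.1 on the sesamin arrays, against 10.1, 4.24, 6.70, 4.33 and 11.7 on the lignan-free arrays. The lignan-free values all lay below the filter level of 17.8, so the increase was at least 59.0-fold, and on the log2 scale the sesamin rats differed among themselves more than in any other called gene, with replicate 1 highest and replicate 5 lowest. Its fitted change was 6.36 ± 0.36 (adjusted p = 2.35e-09), a value that depends on the offset added before the log (5.53 with an offset of 16, 7.27 with none). Eci1, the mitochondrial isomerase needed for unsaturated fatty acids, read 8093, 6541, 6421, 6311 and 5312 with sesamin, against 1624, 1646, 1749, 1203 and 1672 without lignan. These groups stood far apart, and Eci1 rose 4.13-fold (log2 change 2.04 ± 0.12, adjusted p = 2.35e-09), although a second, dim probe set for it averaged 20.5 with sesamin and 22.3 without lignan. When the probe sets of a gene were averaged, the Eci1 call ended (adjusted p = 0.0698).

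Other thioesterases also rose. Acot2, of mitochondria, read 1184, 1420.1, 1299, 1057 and 928 with sesamin, against 248, 324, 365, 263 and 364 without lignan, a rise of 3.72-fold (log2 change 1.89 ± 0.13, adjusted p = 2.55e-08) with no overlap. Acot3, of peroxisomes, read 257, 183, 128, 145 and 135 with sesamin, against 41.7, 43.2, 34.5, 27.7 and 64.9 without lignan, and rose 3.63-fold (log2 change 1.86 ± 0.23, adjusted p = 0.000113). Sesamin replicate 1 was the highest in Acot3, yet the lowest sesamin array still lay above every lignan-free array. Acot2, Acot1, Acot4 and Acot3 lie side by side on rat chromosome 6 (GRCr8, chr6:109341426-109419840), and short matches between such similar genes could share signal on the array.

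The promoters of the genes that rose were searched for the DR1 motif, since this is the sequence that PPARα and RXR are known to bind. The motif was taken as AGGTCA repeated in the same direction after 1 base of any kind, both strands were read, and the 12 fixed letters were compared. Windows of 250 bases before each annotated start came from the RefSeq promoter table (rat build GRCr8), where 39 of the 46 genes matched by symbol, with 40 windows. At most 2 mismatches were found in 4 of these windows (10%), against 284 of 10761 windows of the tested genes (2.64%) and 1053 of all 33469 windows (3.15%). The 4 matches are shown because they belong to genes that rose, each written on the strand of its gene with the 13 bases of the match in capitals. The windows of Acadvl, Acot4 and Rab30 precede starts that lie inside the gene's outermost limits.
Acadvl, chr10:55236706-55236730, minus strand, 1 mismatch: gggagaagAGGTCAGTGGTCAaggc
Acot4, chr6:109399833-109399853, plus strand, 1 mismatch, motif on the other strand: cagaagccAGACCTCTGACCT
Crat, chr3:34087302-34087330, minus strand, 2 mismatches: gacgttcaAGGACACCGGTCAgacttgga
Rab30, chr1:156288799-156288827, plus strand, 2 mismatches: aggttaccAGGTGAAAGGACActgggtat

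The match of Crat lies 210 bases before a start at the outer end of the gene. Its full 250 bases (chr3:34087100-34087349, minus strand) are given with the same 13 bases in capitals.
Crat promoter: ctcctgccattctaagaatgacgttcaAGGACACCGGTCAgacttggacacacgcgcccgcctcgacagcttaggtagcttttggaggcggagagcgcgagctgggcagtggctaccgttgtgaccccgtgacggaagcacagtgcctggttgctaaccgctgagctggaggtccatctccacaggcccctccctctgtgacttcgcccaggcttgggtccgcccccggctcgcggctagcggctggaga
Hadhb and Hadha encode the subunits of the mitochondrial trifunctional protein, which carries out the last steps of long-chain oxidation, and both rose. They are transcribed away from each other from neighbouring starts, and the 243 bases between them (chr6:31907558-31907800, plus strand, the strand of Hadha) hold a match with 3 mismatches, shown in capitals, that counts for both genes.
Hadhb to Hadha: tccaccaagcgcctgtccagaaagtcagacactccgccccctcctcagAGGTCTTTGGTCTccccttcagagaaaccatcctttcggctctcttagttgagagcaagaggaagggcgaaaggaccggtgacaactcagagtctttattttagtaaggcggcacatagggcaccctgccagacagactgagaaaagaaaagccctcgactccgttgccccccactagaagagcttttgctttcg
Matches with up to 3 mismatches are common (18.1% of the windows of tested genes and 30% of those of the genes that rose). These are descriptions of sequence, and whether a receptor binds there was not tested.

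Beyond the leading genes, 22 called genes stood outside the 6 fatty acid lists, 18 higher and 4 lower. Only 4 of the 22 belong to another of the 35 lists. The 18 that rose had a median change of 0.88 and a median lignan-free intensity of 349, while the 28 of the fatty acid lists had a median change of 0.93. As values by rat show, 17 of these 18 had no overlap between the diets, Chchd6 being the exception. Since the call chose these genes, their separation is a description. Under median scaling 8 of the 18 were no longer called (Cmbl, Abhd1, Tmem14c, Dhrs4, Ddah1, Chchd6, Miox and Nucb2), while Aig1, Hsdl2 and Colq were called under all 25 alternatives tried.

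**Figure D2:**
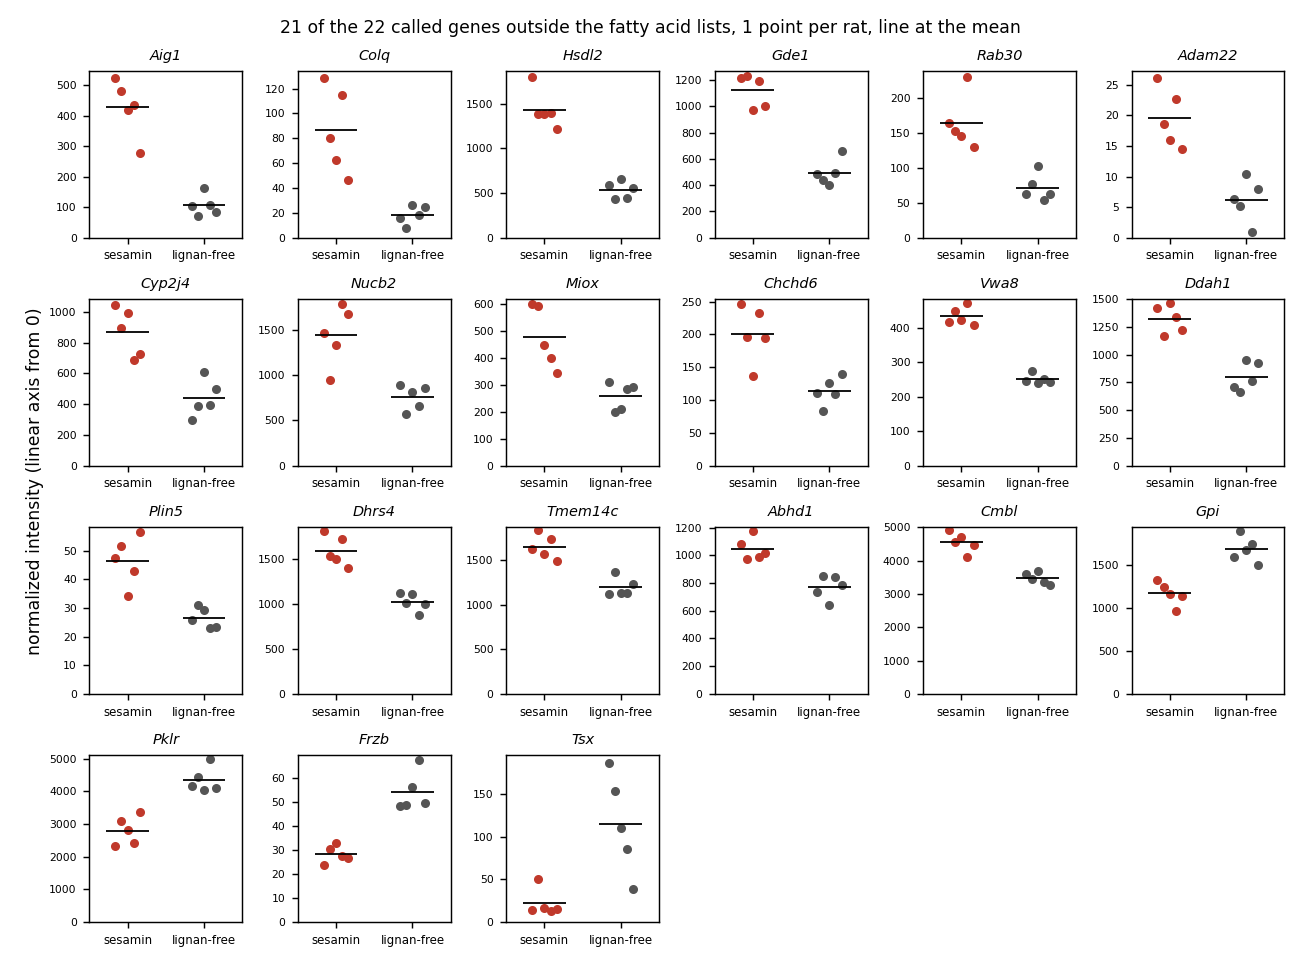
Normalized intensity (linear axis from 0) of 21 of the 22 called genes outside the fatty acid lists, 1 point per rat, sesamin in red at the left and lignan-free in grey at the right, with a line at the mean of 5 rats. The diets overlap only in Chchd6 and Tsx.

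Several of these genes encode lipid enzymes or coat proteins of lipid stores. Aig1, a membrane hydrolase that cleaves fatty acid esters of hydroxy fatty acids, read 525, 482, 418, 436 and 279 with sesamin, against 103, 71.8, 164, 106 and 83.7 without lignan. Sesamin replicate 5 was the lowest of its diet and still lay well above the highest lignan-free rat, and Aig1 rose 3.95-fold (log2 change 1.98 ± 0.19, adjusted p = 6.19e-06). Hsdl2, a peroxisomal short-chain dehydrogenase, read 1801, 1379, 1386, 1389.8 and 1213 with sesamin, against 586, 435, 651, 438 and 556 without lignan. It rose 2.68-fold (log2 change 1.42 ± 0.14, adjusted p = 5.46e-06), its second probe set by 1.52, and the lowest sesamin value stood far above every lignan-free one. Gde1, a glycerophosphodiester phosphodiesterase, read 1213, 1231, 972, 1192 and 999.9 with sesamin, against 487, 439, 399, 491 and 656 without lignan. The groups stood apart and Gde1 rose 2.27-fold (log2 change 1.19 ± 0.15, adjusted p = 0.000121). Cyp2j4, a cytochrome P450 that oxidizes arachidonic acid, read 1047, 895, 993, 689 and 725 with sesamin, against 299, 388, 609.9, 397 and 500.0 without lignan. Sesamin replicates 4 and 5 came close to lignan-free replicate 3 without reaching it, and Cyp2j4 rose 2-fold (log2 change 1.0 ± 0.17, adjusted p = 0.00571). Plin5, which coats lipid droplets in tissues that burn fat, read 47.3, 51.6, 34.1, 42.8 and 56.6 with sesamin, against 25.8, 30.9, 29.1, 23.1 and 23.2 without lignan, low levels on this array. It rose 1.61-fold (log2 change 0.69 ± 0.12, adjusted p = 0.00963), with sesamin replicate 3 nearest the lignan-free rats.

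Mitochondrial and peroxisomal proteins formed a second group. Vwa8, an ATPase of the mitochondrial matrix, read 415, 447, 423, 472 and 408 with sesamin, against 246, 275, 241, 252 and 241 without lignan. The rats of each diet were very close to one another, and the 1.71-fold rise had a small error (log2 change 0.77 ± 0.08, adjusted p = 1.49e-05). The 3 probe sets of Vwa8 differed little (changes of 0.77, 0.80 and 0.65). Dhrs4, a peroxisomal carbonyl reductase that also acts on retinal, read 1815, 1539, 1502, 1728 and 1403 with sesamin, against 1129, 1008, 1113, 879.8 and 1002 without lignan, a rise of 1.55-fold (log2 change 0.63 ± 0.09, adjusted p = 0.00069). Tmem14c, an inner membrane protein needed for a late step of heme synthesis, read 1623, 1838, 1572, 1734 and 1493 with sesamin, against 1119, 1364, 1133, 1134 and 1234 without lignan. Its groups were apart by a small margin and it rose 1.38-fold (log2 change 0.46 ± 0.09, adjusted p = 0.0248). Chchd6, which helps shape the folds of the inner membrane, read 246, 197, 137, 232 and 195 with sesamin, against 111, 83.7, 127, 109.5 and 139.7 without lignan. Here the diets overlapped, since sesamin replicate 3 lay just below lignan-free replicate 5, and the rise was 1.72-fold (log2 change 0.78 ± 0.16, adjusted p = 0.0325). The calls of Tmem14c and Chchd6 ended without any of several single arrays, sesamin replicates 1, 2 and 4 and lignan-free 1 and 4 for both genes, also lignan-free 3 for Tmem14c and sesamin 5 and lignan-free 2 for Chchd6 (adjusted p up to 0.0903 and 0.121).

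Enzymes of small molecules formed another group. Ddah1, which breaks down asymmetric dimethylarginine, an inhibitor of nitric oxide synthesis, read 1420.1, 1166, 1462, 1338 and 1225 with sesamin, against 712, 663, 952, 767 and 920.3 without lignan. The lowest sesamin rat, replicate 2, lay above the highest lignan-free rat, and Ddah1 rose 1.65-fold (log2 change 0.72 ± 0.12, adjusted p = 0.00313). Miox, which opens the ring of myo-inositol, read 599, 590.5, 448, 398 and 342 with sesamin, against 309.9, 201, 211, 283 and 291 without lignan. Sesamin replicates 1 and 2 were high, the other sesamin rats were only just above the lignan-free range, and Miox rose 1.8-fold (log2 change 0.85 ± 0.18, adjusted p = 0.0372). Cmbl, a hydrolase that in humans activates ester prodrugs, read 4931, 4557, 4706, 4122 and 4486 with sesamin, against 3597, 3449, 3684, 3353 and 3281 without lignan. The rise was small, 1.31-fold (log2 change 0.39 ± 0.07, adjusted p = 0.00712). The Cmbl call held when any single array was left out (adjusted p up to 0.0307), but it ended in 6 of the 15 other alternatives. These included median scaling, the mean of its probe sets and the fit of only the groups compared. Abhd1, a member of the alpha/beta hydrolase family, read 1085, 976, 1179, 990.4 and 1015 with sesamin, against 734, 855, 645, 846 and 787 without lignan, and rose 1.36-fold (log2 change 0.44 ± 0.09, adjusted p = 0.0372). The calls of Miox and Abhd1 each ended in 7 of the 10 fits that left out 1 array (adjusted p up to 0.134 and 0.125): both without sesamin replicate 1, 3 or 4 or lignan-free 3, Miox also without sesamin 2 or lignan-free 2 or 4, Abhd1 also without sesamin 5 or lignan-free 1 or 5.

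A last set of genes that rose has roles in signalling, traffic or secretion. Colq, the collagen tail that anchors acetylcholinesterase, read 128, 80.2, 62.5, 115 and 46.6 with sesamin, against 15.6, 7.96, 26.5, 18.03 and 24.7 without lignan. It was dim without lignan, the sesamin rats spread widely, and the rise was 3.72-fold (log2 change 1.90 ± 0.25, adjusted p = 0.000252). Rab30, a GTPase of the Golgi, read 164, 152, 146, 231 and 130.3 with sesamin, against 62.5, 77.4, 102, 53.5 and 62.1 without lignan, and rose 2.21-fold (log2 change 1.15 ± 0.17, adjusted p = 0.00134) with replicate 4 the highest. Nucb2, the precursor of the peptide nesfatin-1, read 1462, 941, 1336, 1781 and 1669.6 with sesamin, against 895, 574, 819, 658 and 852 without lignan. Sesamin replicate 2 lay only just above the lignan-free range, the rise was 1.87-fold (log2 change 0.90 ± 0.18, adjusted p = 0.0202), and the call ended without sesamin replicate 1, 4 or 5 or lignan-free 2 or 4 (adjusted p up to 0.0806). Adam22, a membrane protein of the ADAM family without protease activity, read 26.1, 18.7, 16.01, 22.8 and 14.5 with sesamin, against 6.30, 5.21, 10.4, 0.953 and 8.01 without lignan, close to or below the filter level throughout. It is called at 1.12 ± 0.23 (adjusted p = 0.0372), but against the filter level the difference is at least 1.07-fold and its other probe set changed by 0.19. Adam22 passed the filter only with the help of the episesamin and sesamolin arrays (means 51.6 and 50.6). It was not tested when the 10 sesamin and lignan-free arrays were normalized and fitted alone. The Adam22 call ended without any of sesamin 1 to 4 or lignan-free 1, 2 and 4 (adjusted p up to 0.134).

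Only 4 genes were called lower. Pklr, the liver pyruvate kinase of the last step of glycolysis, read 2331, 3094, 2809, 2406 and 3353 with sesamin, against 4149.8, 4433, 4041, 4975 and 4096 without lignan. All sesamin rats lay below all lignan-free rats, Pklr fell to 0.641 of the lignan-free level (log2 change -0.64 ± 0.13, adjusted p = 0.0372), and its second probe set changed by -0.94. Gpi, which turns glucose 6-phosphate into fructose 6-phosphate, read 1332, 1253, 1163, 972 and 1147 with sesamin, against 1602, 1903, 1684, 1756 and 1504 without lignan, and fell to 0.694 of the lignan-free level (log2 change -0.53 ± 0.11, adjusted p = 0.0293) with no overlap. Frzb, a secreted antagonist of Wnt signals, read 23.9, 30.4, 32.8, 27.4 and 26.9 with sesamin, against 48.5, 48.9, 56.4, 67.5 and 49.9 without lignan. The groups were apart and Frzb fell to 0.57 of the lignan-free level (log2 change -0.81 ± 0.17, adjusted p = 0.0383), while its other probe set changed by -0.16. Tsx, an X-linked gene known from rodent testis, read 14.7, 50.2, 16.2, 12.9 and 15.1 with sesamin, against 187, 153, 110.0, 85.5 and 39.3 without lignan. Sesamin replicate 2 overlapped the lignan-free range, the other 4 sesamin arrays lay below the filter level, and Tsx was at least 4.61-fold lower (log2 change -2.10 ± 0.45, adjusted p = 0.0458). None of these 4 calls held without each single array: Frzb ended in 10 of 10 such fits (adjusted p up to 0.144), Tsx in 8 (all but sesamin 2 and lignan-free 5, up to 0.156), Pklr in 8 (all but sesamin 2 and 5, up to 0.137) and Gpi in 6 (sesamin 3, 4 and 5 and lignan-free 2, 3 and 4, up to 0.1).

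Further members of the fatty acid lists rose beyond the leading genes, though 10 of the 28 calls ended under median scaling (Aldh3a2, Lonp2, Acadm, Fabp7, Slc25a20, Acadvl, Eci2, Hadha, Acat1 and Nudt7). In peroxisomal oxidation 9 of 23 tested genes rose and 0 fell, with a median change of 0.35 against -0.01 over all genes, and 6 rose without normalization between arrays. Crot and Crat, which load acyl groups on carnitine, rose by 1.81 ± 0.12 and 1.73 ± 0.19. Ech1 and Ehhadh, a dienoyl-CoA isomerase and the bifunctional enzyme of the L-pathway, rose by 1.69 ± 0.14 and 1.61 ± 0.19. Smaller rises were seen for Decr2 (0.93 ± 0.11), Nudt7, a coenzyme A hydrolase (0.90 ± 0.12), and Eci2 (0.45 ± 0.08). Members that were not called include Phyh, of phytanic acid breakdown, at 0.55 ± 0.12 (adjusted p = 0.0693), Hacl1 at 0.70 ± 0.19 (0.184) and the acyl-CoA synthetase Slc27a2 at 0.30 ± 0.08 (0.127).

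In mitochondrial oxidation 10 of 25 genes rose, 0 fell and 24 of 25 lay above 0 (median 0.40). The count of 10 depended on the scaling, with 6 called under median scaling and 2 without normalization (medians 0.32 and 0.34). Genes of the carnitine route rose, the carnitine transporter Slc22a5 by 1.16 ± 0.16, Cpt2 by 0.89 ± 0.13 and the carnitine-acylcarnitine carrier Slc25a20 by 0.49 ± 0.10. The dehydrogenases Acadvl and Acadm rose by 0.40 ± 0.07 and 0.38 ± 0.08, and the trifunctional subunits Hadha and Hadhb by 0.55 ± 0.08 and 0.69 ± 0.09. Decr1, the reductase for unsaturated fatty acids, rose by 0.93 ± 0.08. Acad11, an acyl-CoA dehydrogenase for long chains, was at 0.45 ± 0.10 (adjusted p = 0.084) and the thiolase Acaa2 at 0.37 ± 0.10 (0.191), and both were not called. The calls of Acadm and Slc25a20 ended without any of several arrays (adjusted p up to 0.144 without lignan-free 2, 4 or 5 or sesamin 1, 3, 4 or 5 for Acadm, and up to 0.0903 without sesamin 1 or 4 or lignan-free 4 or 5 for Slc25a20).

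Of 13 genes of microsomal omega-oxidation 3 rose, the hydroxylases Cyp4a1 (1.45 ± 0.10) and Cyp4a3 (0.84 ± 0.12) and the aldehyde dehydrogenase Aldh3a2 (0.34 ± 0.07), while 6 lay below 0 (median 0.03). Uptake, activation and hydrolysis had 6 of 31 higher, including Acot4 at 1.79 ± 0.20, the pantetheinase Vnn1 at 1.75 ± 0.19 and the fatty acid binding protein Fabp7 at 0.72 ± 0.15. In the same list 0 were called lower, 8 lay below 0 (lowest -0.81) and 5 of those had an unadjusted p below 0.05. Peroxisome biogenesis had 2 of 18 higher, Pex11a, which acts in peroxisome division, at 1.64 ± 0.23 and the peroxisomal protease Lonp2 at 0.50 ± 0.11. Ketone body synthesis had 1 of 13 higher, Acat1, the acetoacetyl-CoA thiolase, at 0.63 ± 0.10, while the fasting signal Angptl4 was at 0.70 ± 0.27 (adjusted p = 0.538). Coenzyme A synthesis and breakdown had 2 of 12 higher, both already named (Vnn1 and Nudt7), and the synthesis enzymes Ppcs and Pank1 were at 0.52 ± 0.16 and 0.30 ± 0.10 (adjusted p = 0.313 and 0.413). Single arrays ended the calls of Aldh3a2 (any array but lignan-free 2, adjusted p up to 0.14), Lonp2 (sesamin 1, 2, 3 or 5 or lignan-free 1, 2 or 4, up to 0.134) and Fabp7 (sesamin 1, 3, 4 or 5 or lignan-free 1, 2 or 4, up to 0.11).

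**Figure D3:**
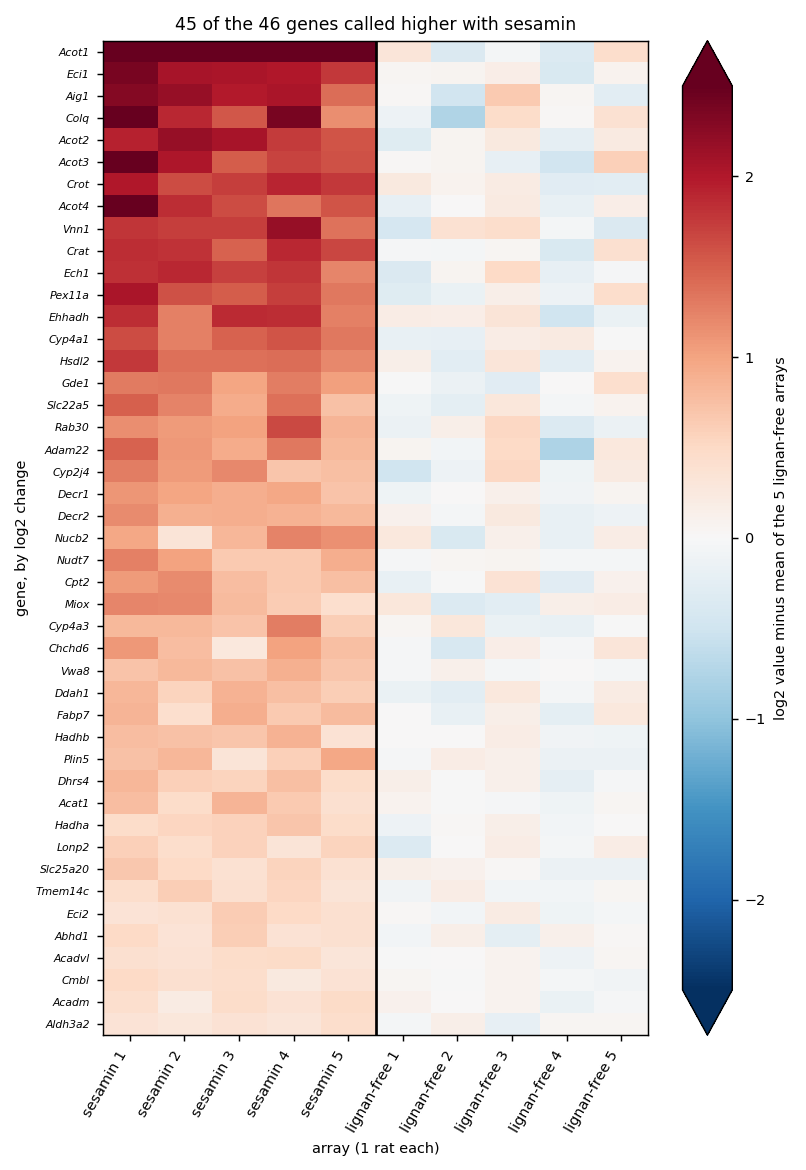
Log2 value of 45 of the 46 genes that rose, minus the mean of the 5 lignan-free arrays, in each of the 5 sesamin arrays (left) and 5 lignan-free arrays (right), colours limited to 2.5 on either side. Over all 46 genes sesamin replicate 1 averaged 1.38 and replicate 5 averaged 0.97, the highest and the lowest of the sesamin rats.

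The sesamin arrays differed in the size of the change. Over the 46 genes that rose, the mean change against the lignan-free mean was 1.38, 1.19, 1.14, 1.23 and 0.97 in sesamin replicates 1 to 5. Replicate 5 was the lowest of its diet in 24 of the 46 genes, 10 of them outside the fatty acid lists, and replicate 1 was the highest in 22. All 5 rats were above the lignan-free mean on average. The call chose these genes on the same arrays, so that height and these counts are descriptions. Whether the replicate number bears on the differences between the rats was not tested. Left out in turn, sesamin replicate 5 gave 45 called genes of which 40 were among the 50, and replicate 1 gave 38 of which 36 were.

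Genes of lipid synthesis lay on the other side of 0 in number but not in calls. In fatty acid and triglyceride synthesis 27 of 32 genes lay below 0 (median -0.22, against -0.01 over all genes), 1 fell, Pklr, and 8 were lower at an unadjusted p below 0.05, against 3.62% of all genes. Acaca, acetyl-CoA carboxylase of the committed step, read 1055, 1926, 1335, 1032 and 1504 with sesamin, against 2033, 1994, 1917, 2906 and 2075 without lignan. The ranges overlapped at sesamin replicate 2, lignan-free replicate 4 stood high, and Acaca was not called at -0.69 ± 0.16 (adjusted p = 0.0932). The NADPH-producing Pgd was at -0.49 ± 0.17 (0.438), the desaturase Scd, the brightest of the list, at -0.17 ± 0.07 (0.587) and the lipogenic regulator Thrsp at -0.22 ± 0.11 (0.698). Cholesterol synthesis and uptake had 18 of 22 genes below 0 (median -0.17) with 0 called and 2 lower at an unadjusted p below 0.05, Scap at -0.47 ± 0.18 (0.54) and Sc5d at -0.25 ± 0.11 (0.621). Without the 6 of the 20 arrays whose mean raw intensity was below 200 the median of this list was -0.38.

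**Figure D4:**
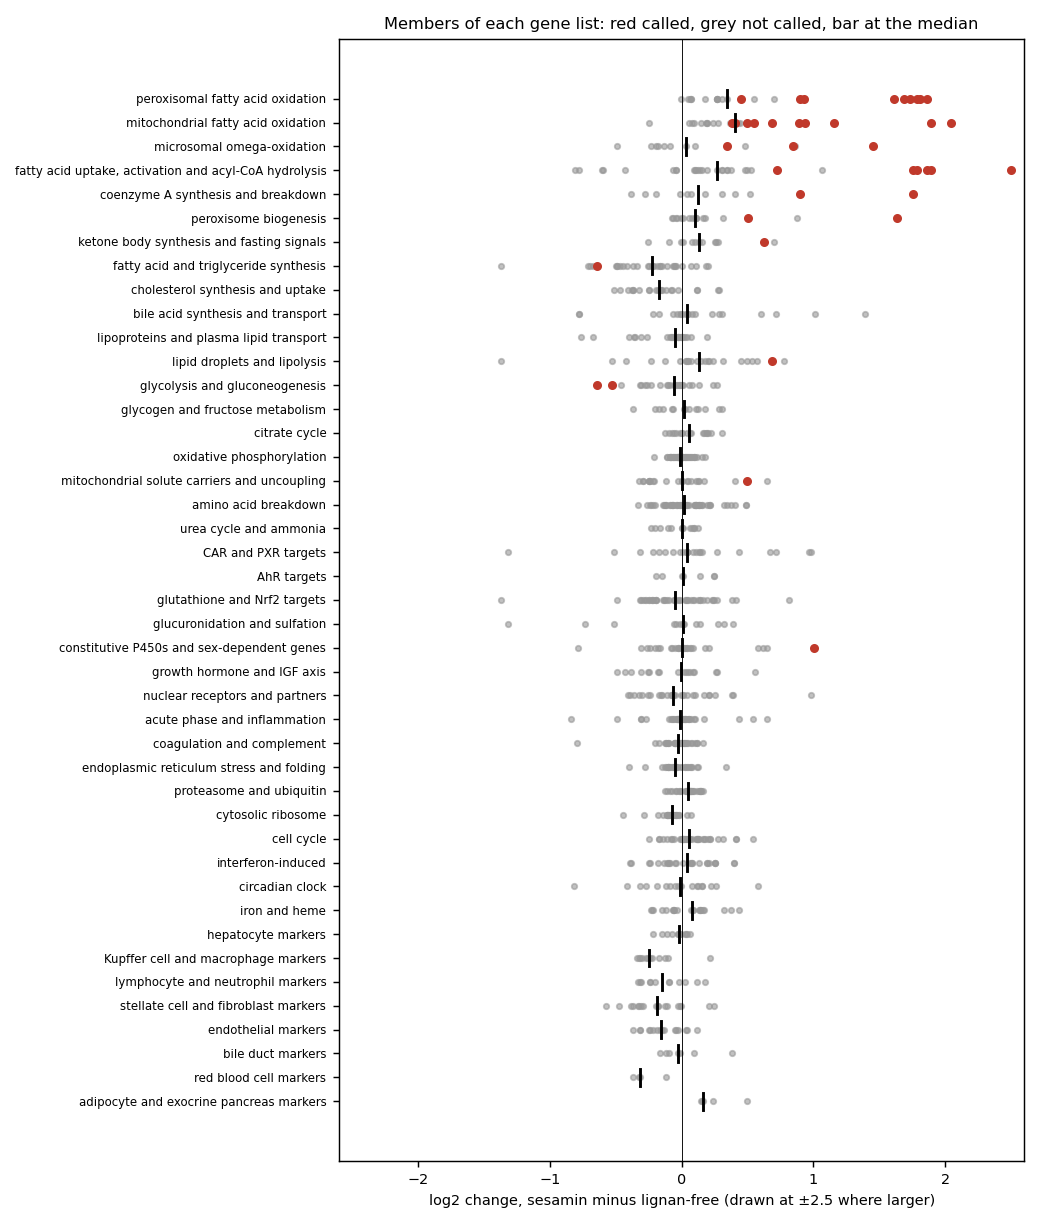
Log2 change (sesamin minus lignan-free) of every tested member of 35 gene lists and 8 lists of cell type markers, called genes in red, others in grey, with a bar at the median. The medians of peroxisomal (0.35) and mitochondrial oxidation (0.40) lie to the right, that of fatty acid and triglyceride synthesis (-0.22) to the left, and most others near 0.

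Carbohydrate genes held 2 of the 4 that fell. In glycolysis and gluconeogenesis 2 of 25 fell, Gpi and Pklr, 19 lay below 0 and the median was -0.06. The glucose transporter Slc2a2 read 3217, 3342, 3605, 3281 and 3554 with sesamin, against 3999.6, 4049, 4018, 4617 and 4419.6 without lignan, with all sesamin rats lower, but it was not called at -0.31 ± 0.09 (adjusted p = 0.247). Mpc1, a subunit of the mitochondrial pyruvate carrier, read 2588, 2917, 3440.1, 3205 and 2890.3 with sesamin, against 3554, 4041, 4359, 4298 and 4143 without lignan. Its groups too did not overlap, and it narrowly missed the call at -0.44 ± 0.10 (adjusted p = 0.0583). In glycogen and fructose metabolism 0 of 14 were called and 1 in each direction had an unadjusted p below 0.05, with ketohexokinase Khk at -0.20 ± 0.09 (0.603) and glycogen synthase Gys2 at 0.30 ± 0.14 (0.664). Citrate cycle genes had 0 of 18 called and 4 higher at that level, among them Aco1 at 0.30 ± 0.10 (0.389), Suclg1 at 0.19 ± 0.07 (0.53) and Idh1 at 0.19 ± 0.08 (0.587).

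Lipid transport and bile acid genes gave 1 call in all. Lipid droplets and lipolysis had 1 of 24 higher, Plin5. At an unadjusted p below 0.05, 4 of that list were higher and 2 lower, and 6 lay below 0 (lowest -1.37). The monoglyceride lipase Mgll read 826, 791, 834, 568 and 802 with sesamin, against 403, 365, 349.9, 535 and 589 without lignan, overlapping only through sesamin replicate 4, and was at 0.78 ± 0.18 (adjusted p = 0.0872). Cidea and Plin2, other droplet proteins, were at 0.57 ± 0.19 (0.392) and 0.24 ± 0.12 (0.698). Bile acid synthesis and transport had 0 of 22 called and 5 higher at an unadjusted p below 0.05. Abcg5, part of the sterol exporter, read 56.9, 23.9, 57.8, 65.3 and 41.4 with sesamin, against 15.9, 3.28, 28.7, 11.97 and 20.3 without lignan, where 3 rats were below the filter level, and was at 1.39 ± 0.31 (adjusted p = 0.0595). Cyp8b1, the enzyme that sets the share of cholic acid, varied widely without lignan (1345, 1745, 522, 1507 and 2569) and was at 1.01 ± 0.33 (0.362). Lipoproteins had 0 of 24 called and 2 lower at that level, hepatic lipase Lipc at -0.36 ± 0.11 (0.277) and Apom at -0.27 ± 0.11 (0.588).

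Genes of foreign-compound metabolism hardly entered the calls. Among targets of the receptors CAR and PXR 0 of 24 were called, 3 were higher and 1 lower at an unadjusted p below 0.05. Aldh1a1 read 1544, 1526, 1726, 1497 and 447 with sesamin, against 328, 544, 1415, 691 and 542 without lignan. Sesamin replicate 5 stood low and lignan-free replicate 3 high for their diets, and Aldh1a1 was at 0.96 ± 0.34 (adjusted p = 0.457). The transporter Slco1a4 was at 0.71 ± 0.24 (0.371) and Nr1i3, which encodes CAR itself, at 0.98 ± 0.31 (0.361). Targets of the AhR had 0 of 7 called (Cyp1a2 -0.15 ± 0.20, Nqo1 0.25 ± 0.28), with 0 at an unadjusted p below 0.05, and glutathione and Nrf2 targets 0 of 44, with 2 higher and 6 lower at that level (Mgst2 -0.49 ± 0.12, Keap1 -0.22 ± 0.07, Mgst3 0.24 ± 0.09, adjusted p = 0.107, 0.388 and 0.457). Of the 28 constitutive P450 and sex-dependent genes 1 rose, Cyp2j4, while the steroid enzymes Hsd17b2 and Akr1c14 were at 0.65 ± 0.21 (0.361) and -0.24 ± 0.09 (0.483).

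The remaining lists gave no call other than Slc25a20 among 23 mitochondrial carriers. Oxidative phosphorylation showed little movement, with 0 of 47 genes called, 0 at an unadjusted p below 0.05 and all changes between -0.21 and 0.18. The urea cycle (13 genes), the growth hormone and IGF axis (18) and the circadian clock (18) also had 0 at that level. Amino acid breakdown had 0 of 54 called and 4 higher at that level, though Agxt, the peroxisomal and mitochondrial transaminase of glyoxylate, read 1157, 1548, 1648, 1807 and 1389.8 with sesamin, against 1073, 1076, 1172, 983 and 1013 without lignan. Agxt overlapped only through sesamin replicate 1 and missed the call at 0.49 ± 0.11 (adjusted p = 0.0567), as did Hibch of valine breakdown at 0.49 ± 0.14 (0.226). Counts of 0 called were also found in glucuronidation and sulfation (14), nuclear receptors and partners (31), acute phase and inflammation (35), coagulation and complement (34), endoplasmic reticulum stress (31), proteasome (34), cytosolic ribosome (28), cell cycle (40), interferon-induced genes (26) and iron and heme (22), with at most 2 genes in either direction at an unadjusted p below 0.05. Examples are the acute phase gene Orm1 at 0.54 ± 0.16 (0.273), properdin, Cfp, at -0.80 ± 0.28 (0.457), and the cell cycle genes Cdkn1b at 0.41 ± 0.16 (0.538) and Ccnd1 at 0.54 ± 0.25 (0.664). In the ribosome list 26 of 28 genes lay below 0, by a median of only -0.07, with Rpsa at -0.18 ± 0.07 (0.562).

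Markers of liver cells other than hepatocytes leaned below 0, with 0 called in any list and, at an unadjusted p below 0.05, only 1 Kupffer, 3 stellate and 2 endothelial markers lower. For Kupffer cells and macrophages 11 of 12 markers lay below 0 (median -0.25), and their summed intensity ran from 5646 to 8661 with sesamin and from 7830 to 8546 without lignan. The complement genes C1qa and C1qc were at -0.24 ± 0.13 and -0.30 ± 0.14 and the Kupffer lectin Clec4f at -0.23 ± 0.16 (adjusted p = 0.733, 0.637 and 0.832). Stellate cell and fibroblast markers had 16 of 18 below 0 (median -0.19, sums of 4513 to 5329 with sesamin and 5174 to 7764 without lignan), with Vim at -0.37 ± 0.12 (0.361) and Col1a2 at -0.33 ± 0.12 (0.495). Endothelial markers had 13 of 16 below 0 (median -0.16, sums of 5024 to 5475 with sesamin and 5256 to 6157 without lignan), with Emcn at -0.32 ± 0.13 (0.583) and Gpr182 at -0.32 ± 0.13 (0.555). In whole-liver RNA, fewer cells of a type and less RNA per cell cannot be told apart. Lymphocyte and neutrophil markers had a median of -0.15 (12 genes, sums of 439 to 735 with sesamin and 499 to 650 without lignan, Cd3d below the filter level on all 10 arrays), bile duct markers -0.03 (7 genes, 2793 to 3402 with sesamin and 2830 to 3475 without lignan) and red blood cell markers -0.32 (4 genes, 8307 to 10450 with sesamin and 9322 to 11058 without lignan). Adipocyte and exocrine pancreas markers had a median of 0.16 over 5 tested of 14 (sums of 830.0 to 1217 with sesamin and 734 to 1272 without lignan), with Lep, Amy2a3, Pnlip and Cel below the filter level on all 10 arrays. These levels moved beside the called genes, whose dependence on them was not tested.

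Just outside the threshold stood 15 genes with the lowest p among those not called (adjusted p from 0.0567 to 0.112), 8 of them above 0 and 7 below, and some have been named with their lists. Nim1k, a protein kinase, read 203, 78.6, 121, 210.3 and 146 with sesamin, against 4.34, 34.4, 64.3, 24.6 and 71.5 without lignan, a separation in every rat at 2.02 ± 0.46 (adjusted p = 0.0693). Adtrp, a hydrolase of the same family as Aig1, was at 0.31 ± 0.07 (0.0936) with no overlap. Lower in the sesamin livers without passing the test were the fucosyltransferase Fut8 at -0.40 ± 0.09 (0.0664), the iodotyrosine deiodinase Iyd at -0.54 ± 0.13 (0.0869), the calcineurin regulator Rcan1 at -0.58 ± 0.14 (0.0932) and the phosphatase inhibitor Ppp1r14a at -0.56 ± 0.14 (0.108). Pgrmc2, a heme-binding membrane protein, was at 0.37 ± 0.09 (0.112).

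Some changes were large and separated the rats of both diets, yet missed the call. The 8 largest ran from 0.63 to 2.05 among the higher genes and from -1.25 to -0.79 among the lower ones. Hdc, histidine decarboxylase, read 201, 202, 96.05, 109 and 59.4 with sesamin, against 30.2, 29.7, 15.4, 21.1 and 30.6 without lignan. Its sesamin rats differed widely among themselves, with replicates 1 and 2 high, and it was at 2.05 ± 0.66 (adjusted p = 0.362). Nceh1, a neutral cholesterol ester hydrolase, was at 0.88 ± 0.26 (0.277) and Tor3a at 0.77 ± 0.22 (0.247), and the others above 0 were Ubap1l, Lama1, Dck and the already named Nim1k and Hacl1. In the other direction Aldh1b1, a mitochondrial aldehyde dehydrogenase, was at -0.94 ± 0.40 (0.603), the integrin activator of blood cells Fermt3 at -1.25 ± 0.35 (0.242), Zmat5 at -0.91 ± 0.26 (0.249) and the collagen Col12a1 at -0.79 ± 0.20 (0.127), and the others below 0 were Cebpe, Npffr2, Dclre1c and Slc22a15. Several of these genes were dim. At least 4 of the 5 sesamin arrays lay below 17.8 in Fermt3, Cebpe, Npffr2 and Dclre1c, as did all 5 lignan-free arrays in Ubap1l and Lama1, and the size of their changes depends on the offset.

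The response to sesamin was then set against those to its relatives at the same dose and time, in 2 pairs. Episesamin is the epimer of sesamin at one ring carbon, and sesamolin carries an extra ether oxygen next to one of its aromatic rings. Sesamin differed from episesamin in 142 genes (1.23%), with 47 higher (0.406%) and 95 lower (0.821%), and from sesamolin in 210 (1.81%), with 94 higher (0.812%) and 116 lower (1%). Adjustment was over the genes of each pair. Both counts depended on the scaling and on the groups fitted, as the closing section gives. When only the compared groups were fitted, more genes were called against episesamin than against sesamolin. Of the 46 genes that rose with sesamin, 32 were lower with sesamin than with episesamin, 21 in the fatty acid lists and 11 outside, and 29 were lower than with sesamolin, 20 and 9. In 0 of the 46 was sesamin called higher, and the estimate was below 0 in 46 against episesamin and in 45 against sesamolin. Since the 46 genes were chosen on the same sesamin arrays, these counts are a description.

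Outside the fatty acid lists Aig1 was lower with sesamin, differing by -1.59 ± 0.19 from episesamin (adjusted p = 0.000337) and by -1.73 ± 0.19 from sesamolin (9.19e-05). Abhd1, only 1.36-fold above the lignan-free level with sesamin, differed by -0.87 ± 0.09 (9.9e-05) and -0.97 ± 0.09 (1.6e-05). Differences for Hsdl2 were -1.03 ± 0.14 (0.000692) and -1.0 ± 0.14 (0.000625), for Plin5 -0.90 ± 0.12 (0.000822) and -0.88 ± 0.12 (0.000773), and for Colq -1.64 ± 0.25 (0.00141) and -1.48 ± 0.25 (0.00446). In the fatty acid lists the difference was largest in Acot1, -2.47 ± 0.36 (0.00106) and -2.35 ± 0.36 (0.00141), followed by Crat, -1.76 ± 0.19 (0.000118) and -1.63 ± 0.19 (0.000176). Crat averaged 401 ± 44.4 with sesamin, 1362 ± 91.6 with episesamin and 1309.9 ± 384 with sesamolin, where replicate 2 was low at 643.

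Other genes rose about as far with sesamin as with its relatives. Nucb2 differed by -0.04 ± 0.18 from episesamin (95% interval -0.41 to 0.33, not adjusted) and by 0.00 ± 0.18 from sesamolin (-0.37 to 0.37). Chchd6 differed by -0.03 ± 0.16 (-0.37 to 0.30) and -0.26 ± 0.16 (-0.60 to 0.07), and Cyp4a3 by -0.16 ± 0.12 (-0.41 to 0.09) and -0.20 ± 0.12 (-0.45 to 0.05). For Dhrs4 and Ddah1 the differences from sesamolin were -0.03 ± 0.09 (-0.22 to 0.17) and -0.03 ± 0.12 (-0.28 to 0.22), while those from episesamin were -0.24 ± 0.09 (-0.43 to -0.05) and -0.29 ± 0.12 (-0.54 to -0.05) and did not pass after adjustment. These intervals allow differences of the stated size, so equal action is not shown. Of the 4 genes that fell, 0 differed between sesamin and either relative after adjustment. Gpi differed by -0.16 ± 0.11 (-0.39 to 0.06) and -0.18 ± 0.11 (-0.40 to 0.05), Frzb by -0.27 ± 0.17 (-0.63 to 0.09) and -0.29 ± 0.17 (-0.65 to 0.07), Tsx by -0.21 ± 0.45 (-1.16 to 0.75) and -0.72 ± 0.45 (-1.68 to 0.23), and Pklr by 0.41 ± 0.13 (0.12 to 0.69) and 0.36 ± 0.13 (0.08 to 0.64).

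**Figure D5:**
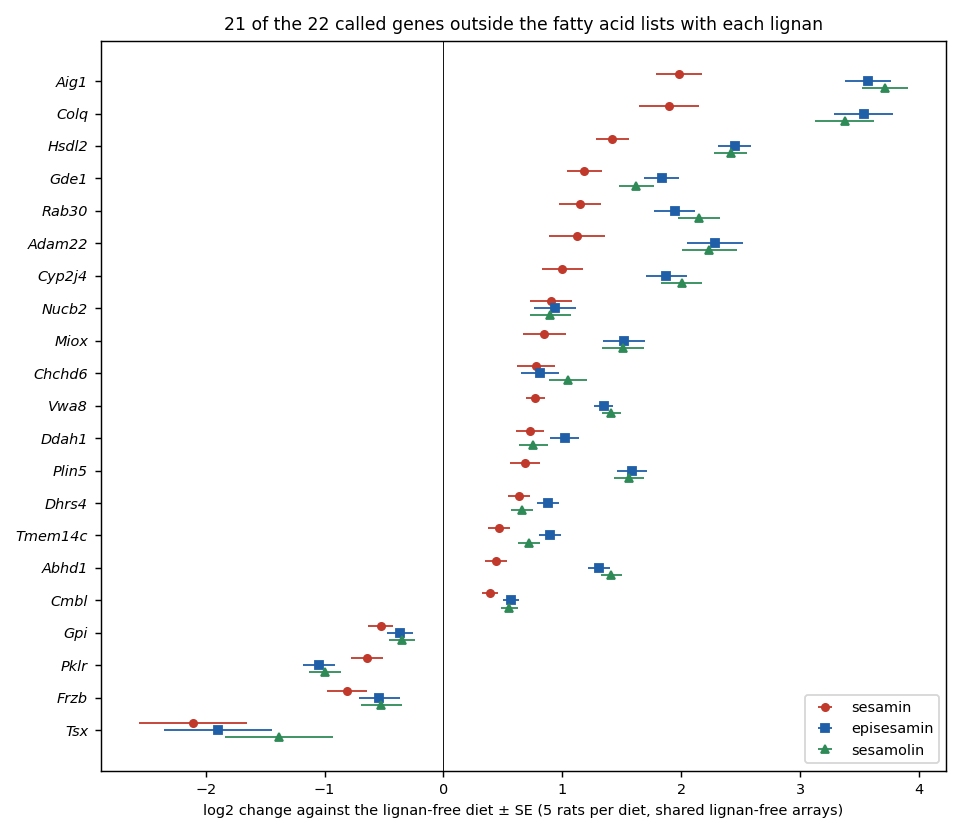
Log2 change against the lignan-free diet ± SE for 21 of the 22 called genes outside the fatty acid lists, with sesamin (red circles), episesamin (blue squares) and sesamolin (green triangles), 5 rats per diet and the same 5 lignan-free arrays throughout. Sesamin lies nearer 0 in most genes that rose, such as Aig1 and Abhd1, and beside the others in Nucb2.

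Other genes were higher with sesamin than with its relatives. Stac3, an adaptor protein known from muscle, was higher with sesamin by 2.20 ± 0.41 than with episesamin (0.00952) and by 2.73 ± 0.41 than with sesamolin (0.00141), with means of 1479.5 ± 515, 323 ± 133 and 239.7 ± 136 and a lignan-free mean of 827 ± 373. The asparaginase-like Asrgl1 was higher by 1.74 ± 0.40 (0.0379) and 3.75 ± 0.40 (6.07e-05), with means of 301 ± 87.5, 100.4 ± 61.3 and 16.3 ± 2.30 and a lignan-free mean of 179 ± 91.9. Car5a, a mitochondrial carbonic anhydrase, and the apolipoprotein Apoa4 were higher than with episesamin by 1.43 ± 0.22 (0.00141) and 1.04 ± 0.19 (0.00808), and Sez6 higher than with sesamolin by 2.0 ± 0.21 (5.69e-05). Car5a averaged 198 ± 71.04 with sesamin and 67.1 ± 9.29 with episesamin, and 195 ± 49.4 without lignan, so the sesamin mean lay near the lignan-free one. Apoa4 averaged 5973 ± 652 with sesamin and 2958 ± 749 with episesamin, both below the lignan-free mean of 7383 ± 245. Sez6 averaged 755 ± 123 with sesamin and 193 ± 74.99 with sesamolin, and 553 ± 111 without lignan. Lower with sesamin, without a call against the lignan-free diet, were Chrna2, a nicotinic receptor subunit, at -2.49 ± 0.38 (0.00155) and -2.73 ± 0.38 (0.000676), Spmip11 at -2.25 ± 0.37 (0.00305) and -2.32 ± 0.37 (0.00242), and the glucuronosyltransferase Ugt2b1 at -2.07 ± 0.39 (0.00939) and -1.64 ± 0.39 (0.0343). Cpt1b, the muscle form of carnitine palmitoyltransferase, and Cidea were lower than with sesamolin, differing by -1.83 ± 0.25 (0.000629) and -1.56 ± 0.19 (0.000269). Chrna2 and Spmip11 were dim with sesamin (15.96 ± 10.7 and 30.4 ± 9.62), so their differences depend on the offset. The 8 largest differences in each direction also held A2ml1, Hyal3, Doc2b and Egf (higher than with episesamin), Dact2 and Dhrs9 (lower), and Cdh17, Atp6ap1l, Mtfr2, Slfn4 and Syncrip-ps2 (higher than with sesamolin).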

How the data were processed

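Liver RNA of 20 rats was measured, each on 1 Affymetrix array. The deposited values are linear intensities per probe set, per the values themselves, and the sources used here do not name the software that summarised the probes. The arrays are not scaled alike in these values, so they were quantile normalized over all 20, an offset of 5.85 (the 20th percentile) was added, and log2 was taken.

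Of 31099 probe sets, 20832 had 1 gene symbol in the platform annotation, 436 several and 9831 none, and genes were named from the first group only. For each gene the brightest probe set was used, and genes above 17.8 (the 40th percentile) on at least 5 arrays were kept, 11576 of 14217. The 4 diets were fitted together with limma 3.58.1 in R 4.3.3 (16 residual degrees of freedom), Benjamini-Hochberg adjusted over all genes tested, with a threshold of 0.05. Bounds on folds took the filter level for the dim diet, array by array. The steps were tested on simulated data.

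Named were the called genes (1 of them is not reported here), the 15 lowest p that missed, the 8 largest separated changes per direction that missed, and up to 5 members per list, with the 8 largest differences per direction between lignans. Members and lists were chosen with earlier results of these data known. Sequences are from RefSeq (GRCr8), and 39 of 46 genes that rose matched. Same-numbered arrays of the diets were compared for pairing. The comparisons of episesamin and sesamolin with the lignan-free diet are given only as counts, quartiles and 1 plot, and probe sets without a single symbol were not used. Alternatives tried were other scalings, offsets, filters, probe set rules, variance models, covariates and left-out arrays.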

Additional observations from a re-analysis of the deposited data

Results flagged for a closer look

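In 11 of 288 sets of 5 arrays, 1 array of a diet stood far from the other 4 by Dixon's test at its 95% level (critical value 0.71). Chance gives this in about 1 set in 20 where sets are independent and not selected. The sets here share arrays, and many are of genes chosen by p or by separation of the diets. The number of flags therefore cannot be judged against that rate. The flagged arrays are listed as a description. Among sesamin arrays, replicate 5 was low in Ech1 (3151, others 4470 to 5045) and in Aldh1a1 (447, others 1497 to 1726). Sesamin replicate 1 was high in Decr2 (3094, others 2389 to 2564), replicate 2 high in Tsx (50.2, others 12.9 to 16.2), replicate 3 low in Zmat5 (14.6, others 32.4 to 41.8) and replicate 4 low in Mgll (568, others 791 to 834). On lignan-free arrays, replicate 4 was low in Eci1 (1203, others 1624 to 1749) and high in Acaca (2906, others 1917 to 2075), while replicate 3 was low in Mgst2 (1838, others 2416 to 2638) and high in Emcn (164, others 110.1 to 119). Sesamolin replicate 2 was low in Crat (643, others 1384 to 1621). Whether any of these arrays stood apart for a reason other than chance was not tested.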

How the results depend on the processing

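Of the 50 calls, 14 held under all 25 alternatives (Acot1, Acot2, Acot3, Acot4, Aig1, Colq, Crat, Crot, Cyp4a1, Ech1, Ehhadh, Hsdl2, Pex11a and Vnn1), and 34 held when any single array was left out. The counts given next are genes higher and lower against the lignan-free diet, then genes called against episesamin and against sesamolin. Median scaling gave 28, 7, 65 and 81, and the values without normalization 17, 1, 12 and 23. These settings put the middle of all changes at -0.09 and -0.08. Medians above 0 in the main fit then lay below 0 in omega-oxidation (-0.08 and -0.07), cell cycle (-0.04 and -0.03) and proteasome (-0.04 and -0.02). The same held for bile acids, glycogen and fructose, the citrate cycle, amino acid breakdown, CAR and PXR targets and AhR targets. It also held for glucuronidation and sulfation, constitutive P450s, interferon-induced genes, and iron and heme. Fitting only the groups compared gave 30, 1, 81 and 52, and normalizing those 10 arrays alone also gave 30 and 1. The count of lower genes was 2 with no filter, 7 with the 60th percentile, 10 with a trended robust variance, 11 with array weights, and 2 with the actin ratio as a covariate, which left 78 genes against episesamin. Without the 6 dim arrays (mean raw intensity below 200), a setting chosen like the actin covariate after seeing the data, 11 genes fell, and 85 and 99 were called against episesamin and sesamolin. In that setting the cell cycle median was -0.13, with 24 of 40 genes below 0. The medians of iron and heme (-0.05), glycogen and fructose (-0.04), omega-oxidation (-0.04) and interferon-induced genes (-0.007) also lay below 0. Leaving out 1 array gave 35 to 45 genes higher, 0 to 10 lower (0 without sesamin 4 or lignan-free 4, 10 without sesamin 2), 84 to 153 called against episesamin and 118 to 223 against sesamolin. The cause was not tested. With few lower genes, single arrays decide their count.

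Some differences near 0 changed sign. Plin2 was at -0.035 as the mean of its probe sets, which also put Dhrs4 at 0.25 and Frzb at 0.064 against sesamolin. Nucb2 against episesamin was at 0.0029 under median scaling, 0.15 without normalization, 0.0058 with array weights, 0.0502 without the 6 dim arrays and from -0.12 to 0.11 when 1 array was left out (0.11 without sesamin 2). Against sesamolin it was at -0.012, with weights at -0.000319, with brightness as a covariate at -0.063, and without sesamin 1, 4 or 5 at -0.013, -0.083 and -0.06. Chchd6 against episesamin was at 0.018, 0.16 without normalization and from -0.11 to 0.094 when 1 array was left out (0.094 without sesamin 3). Without normalization Gpi was at 0.00796 against episesamin, and Ddah1 and Dhrs4 at 0.089 and 0.098 against sesamolin. Ddah1 was at 0.0204 without the 6 dim arrays and from -0.0695 to 0.012 when 1 array was left out (0.012 without sesamin 2), and Dhrs4 from -0.074 to 0.019 (0.019 without sesamin 5). None of these values was called.

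The replicate numbers were not taken to pair the arrays in the main fit, since the labels name no pairing. The same-number correlations of deviations ran from -0.0175 to 0.205, and 3 of 5 exceeded 0.1. The correlations between different numbers ran from -0.124 to 0.0801, and every array but replicate 2 of either diet correlated best with the same number in the other diet, a hint from the data and not the design. With the number as a replicate block 47 genes rose and 4 fell, and 43 of the 50 calls were kept, without those of Aldh3a2, Frzb, Abhd1, Miox, Tsx, Acadm and Chchd6. Signal near background limits Acot1, Adam22, Tsx, Colq, Fermt3, Cebpe, Npffr2, Dclre1c, Ubap1l and Lama1, whose changes depend on the offset.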
